A study of Mus musculus with 27 samples.

Results

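A set of 8 genes of the T-box family other than the core cardiac *Tbx5* and *Tbx20* were examined: *Tbx1*, *Tbx2*, *Tbx3*, *Tbx4*, *Tbx6*, *Tbx15*, *Tbx18* and *Eomes*. The rule takes them by gene family and uses no measured value, though the set was picked with earlier results of these data known. For each gene, the regions of the merged H3K4 methylation list that lay in the gene or within 50 kb of its 5' end were taken, with genes from GENCODE vM1 on mouse assembly NCBIM37 (mm9). The 8 windows held 193 of the 358833 merged regions, with 9 regions lying in the windows of both *Tbx2* and *Tbx4*.

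The study compared E11.5 mouse embryo hearts that lacked the histone H3 lysine 4 methyltransferase KMT2D in heart muscle with hearts that kept 1 functional copy of its gene. Control hearts were Tnnt2::Cre; Kmt2d fl/+; mTmG/+ and mutant hearts were Tnnt2::Cre; Kmt2d fl/fl; mTmG/+, from C57BL/6 mice, so both genotypes carried Cre, a floxed *Kmt2d* allele and the mTmG Cre reporter. Cre was made from the *Tnnt2* promoter in cardiomyocytes, while whole hearts were used, so other heart cells kept *Kmt2d* and contributed to every library. For each genotype, 3 pools of 30 hearts gave H3K4me1, H3K4me2, H3K4me3 and input libraries, 24 in all. A further 3 KMT2D ChIP-Exo libraries from cardiomyocytes differentiated from mouse ES cells were not used here.

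T-box factors are transcription factors that share a DNA-binding domain, the T-box, and bind short elements around the core letters GGTGTGA. In the embryonic heart, *Tbx2* and *Tbx3* are repressors that keep the atrioventricular canal and the developing conduction system from taking on chamber identity, *Tbx18* marks the epicardium and the sinus horns, and *Tbx1* acts in second heart field progenitors and the outflow tract. *Tbx4* is known for the hindlimb and lung, *Tbx6* for paraxial mesoderm, *Tbx15* for limb and craniofacial mesenchyme, and *Eomes* for early mesoderm and for the cerebral cortex. From this textbook knowledge, *Tbx1*, *Tbx2*, *Tbx3* and *Tbx18* are called heart-expressed below and the remaining 4 genes are called other members. H3K4me1 marks mainly enhancers, H3K4me2 both enhancers and promoters, and H3K4me3 promoters.

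The deposited lists hold the position of each region and no read count, so a region's width, its place and its presence in a list of decreased H3K4me1 or H3K4me2 are the only measures. Which of the 3 marks gave rise to a merged region is not recorded, and no value could be set against the spread between pools. The lists of decreased regions are the authors' calls at a false discovery rate under 0.1. The deposited H3K4me2 list is longer than the number of calls the study states, and every share for decreased H3K4me2 below rests on the list as deposited. The heart label was checked with marker genes. All 8 cardiomyocyte genes checked (*Tnnt2*, *Myh6*, *Myh7*, *Actn2*, *Myl7*, *Myl2*, *Ttn* and *Ryr2*) had a transcription start site (TSS) in a region, of 5840 to 19000 bp. So did all 4 endocardial genes (3880 to 10380 bp) and all 3 epicardial genes (3540 to 12160 bp) checked. Of other tissues, *Alb*, *Cd3e* and *Sftpc* had none, *Ins2* had a region of 160 bp, and *Myod1* and *Olig2* had regions of 2320 and 4280 bp. A TSS in a region is common, at 70.4% of coding genes. By width only the cardiomyocyte genes all exceeded the genes of other tissues, so the check bears on those alone.

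Decreased methylation was recorded in 8 of the 193 regions, 3 for H3K4me1 and 5 for H3K4me2, with no region in both lists. The sequences below are from NCBIM37, plus strand, 5′ to 3′. Those of the first set are shown because they are narrow regions called decreased and can be read whole. Capitals mark CG dinucleotides, the letters in which promoters of developmental genes are rich.

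*Tbx3* upstream, decreased H3K4me1, chr5:120115666-120115725: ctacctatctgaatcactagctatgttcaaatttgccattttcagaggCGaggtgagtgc
*Tbx6* upstream, decreased H3K4me2, chr7:133914846-133914945: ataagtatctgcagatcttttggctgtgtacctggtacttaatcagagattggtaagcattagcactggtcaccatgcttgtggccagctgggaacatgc

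The *Tbx3* sequence lay 4.95 kb upstream of the gene's 5' end, inside an intron of the non-coding transcript *Gm2301*, and held 1 CG. The *Tbx6* sequence, 10.1 kb upstream in an intron of *Gdpd3*, held 0. Of 32-base words taken every 8 bases from these sequences, 4 and 9 respectively, none occurred more than once in the assembled chromosomes, so each sequence has a single place in the genome at that word length.

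The second set holds the 250 bases before the 5' end of *Tbx2*, the only member whose TSS lay in a decreased region, and the central 300 bases of the wider decreased regions that hold no TSS. It is shown for its base composition. In the labels, decreased refers to the whole called region and not to the bases shown. Capitals again mark CG.

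*Tbx2* promoter, decreased H3K4me2, chr11:85645803-85646052: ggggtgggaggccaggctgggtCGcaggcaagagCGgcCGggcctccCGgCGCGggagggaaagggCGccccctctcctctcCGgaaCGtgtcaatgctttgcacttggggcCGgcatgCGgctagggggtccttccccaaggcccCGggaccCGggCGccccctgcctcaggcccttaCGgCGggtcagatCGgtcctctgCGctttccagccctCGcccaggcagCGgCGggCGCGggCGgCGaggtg
*Eomes* downstream, decreased H3K4me2, chr9:118397336-118397635: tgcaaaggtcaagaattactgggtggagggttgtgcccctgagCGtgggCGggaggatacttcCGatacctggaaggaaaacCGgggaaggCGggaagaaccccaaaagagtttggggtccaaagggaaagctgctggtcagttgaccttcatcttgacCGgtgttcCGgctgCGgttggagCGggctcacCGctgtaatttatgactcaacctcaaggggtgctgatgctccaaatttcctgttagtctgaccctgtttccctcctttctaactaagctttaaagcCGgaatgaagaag
*Tbx1* upstream, decreased H3K4me1, chr16:18604766-18605065: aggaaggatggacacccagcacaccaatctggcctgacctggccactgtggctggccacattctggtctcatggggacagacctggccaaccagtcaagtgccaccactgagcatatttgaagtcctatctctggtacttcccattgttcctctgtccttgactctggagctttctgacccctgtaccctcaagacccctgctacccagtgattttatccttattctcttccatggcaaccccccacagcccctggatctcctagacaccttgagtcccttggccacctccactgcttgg
*Tbx3* upstream, decreased H3K4me1, chr5:120086956-120087255: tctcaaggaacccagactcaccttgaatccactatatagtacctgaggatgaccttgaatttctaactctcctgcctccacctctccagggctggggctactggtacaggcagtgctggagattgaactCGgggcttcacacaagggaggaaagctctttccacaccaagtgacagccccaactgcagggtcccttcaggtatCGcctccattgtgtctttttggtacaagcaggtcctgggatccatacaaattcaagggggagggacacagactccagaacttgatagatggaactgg

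The *Tbx2* promoter stretch held 25 CG dinucleotides and was 74.8% GC. The stretch downstream of *Eomes* held 11 and was 52.7% GC. The stretches with decreased H3K4me1 near *Tbx1* and *Tbx3* held 0 and 2, at 55.0% and 51.7% GC. Over whole regions, the values were 3.94 CG per 100 bases for the *Eomes* region and 3.08 for the *Tbx2* region, and 1.08 and 1.18 for these *Tbx1* and *Tbx3* regions. The narrow regions went the other way, at 1.67 for the 60 bp *Tbx3* region (H3K4me1) and 0 for the *Tbx6* region (H3K4me2). The *Tbx2* region is also a promoter region, whereas the others named here hold no TSS, so no order between the marks is read from them.

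The third set shows the places in the *Tbx2* region and the *Eomes* region just named that hold the T-box core. Capitals mark GGTGTGA or its reverse complement TCACACC.

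*Tbx2* upstream, chr11:85644865-85644964: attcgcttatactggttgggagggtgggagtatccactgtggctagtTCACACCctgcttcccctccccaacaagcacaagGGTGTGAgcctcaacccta
*Tbx2* downstream, chr11:85657442-85657541: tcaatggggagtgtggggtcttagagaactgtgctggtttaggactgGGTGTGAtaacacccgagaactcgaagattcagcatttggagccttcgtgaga
*Eomes* downstream, chr9:118398803-118398902: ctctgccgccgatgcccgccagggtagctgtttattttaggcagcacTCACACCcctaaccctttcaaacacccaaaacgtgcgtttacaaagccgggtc

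The *Tbx2* region held 3 matches, of which the 2 in the upstream stretch lay on opposite strands. That stretch ended 1.09 kb before the 5' end of the gene. The *Eomes* region held 1 match and the decreased region over the *Golga4* start 2, while the decreased regions near *Tbx1*, *Tbx3*, *Tbx6* and *Tbx18* held 0. These regions ran from 60 to 28400 bp in width, so their counts cannot be set against one another. Per kb, the *Tbx2* region held 0.106 matches, fewer than the 0.152 of all merged regions. Over all windows, matches were sparser in the members' regions than beside them. They numbered 0.108 per kb inside the regions of the 8 windows and 0.167 per kb in the rest of the windows, against 0.152 per kb in all merged regions and 0.137 per kb in the genome. The values for the members are sums over windows, so sequence in the windows of both *Tbx2* and *Tbx4* counts in each. The *Eomes* window was the exception, with 0.196 per kb inside its regions (7 matches) and 0.0467 outside (3 matches). These counts are small, and 2 of the 7 matches lay in the region over the *Golga4* start. None of the 8 members had a match in the 250 bases before its 5' end, where 3.19% of coding genes had one. Of merged regions, 4.35% of those of at least 300 bp held a match in their central 300 bases, 0.726% of those of 60 bp held one and 1.30% of those of 100 bp. A match is a run of letters and not a measured binding site.

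**Figure D1:**
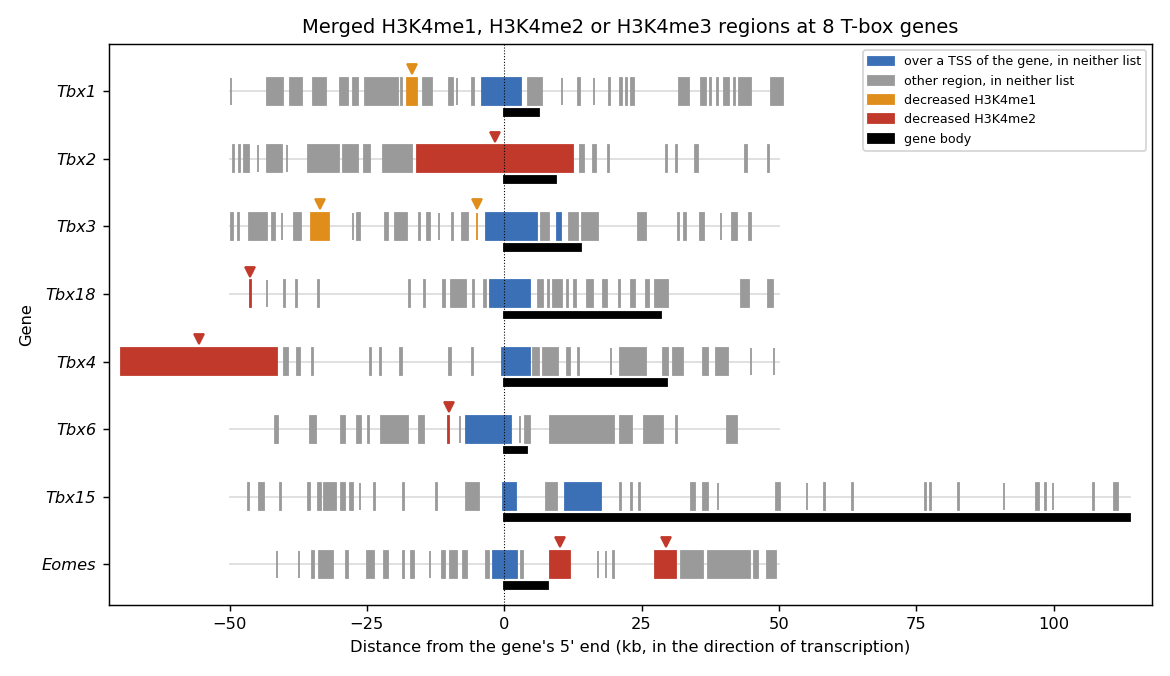
Merged regions at the 8 T-box genes, drawn to scale along the distance from each gene's 5' end in kb (horizontal axis, one gene per line), with the gene body as a black bar and arrowheads over the regions in a decreased list. The 28400 bp region of *Tbx2* stands out, and is seen again at the left end of the *Tbx4* line because the windows of these neighbours overlap (the region is drawn whole, past the window's edge).

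All 8 members had a TSS inside a merged region, as had 70.4% of the 22367 annotated coding genes (15752 genes). Their TSS regions were mostly wide. The median over members was 7250 bp, against 3720 bp over the coding genes with a TSS in a region (quartiles 2400 and 5840 bp). Each member's region was above the median of coding genes.

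The widest was that of *Tbx2* on chromosome 11 (gene 85646053 to 85655450, plus strand). It ran from 85630206 to 85658605, or 28400 bp, which reached 15847 bp upstream and 12552 bp downstream of the 5' end and covered the whole gene. Only 65 of all merged regions were this wide or wider. The same region held the start of the long non-coding RNA *2610027K06Rik*, whose 5' end lies at -328 bp from that of *Tbx2* on the opposite strand, and the start of a short transcript of *Bcas3*, so it was not a region of *Tbx2* alone.

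*Tbx3*, on chromosome 5 (120120678 to 120134733, plus strand), had the next widest TSS region at 9380 bp (120117286 to 120126665), wider than the TSS regions of 90.4% of coding genes. It held 4 of the 6 annotated starts of *Tbx3* and the start of *Gm2301* on the opposite strand. A separate region of 860 bp held the remaining 2 starts, 9580 and 10082 bp into the gene.

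*Tbx18* (chromosome 9, 87597635 to 87626095, minus strand) had a TSS region of 7360 bp (87621346 to 87628705), and *Tbx1* (chromosome 16, 18581806 to 18588113, minus strand) one of 7140 bp (18585086 to 18592225). These were wider than in 84.0% and 82.9% of coding genes. The *Tbx1* region reached 4112 bp upstream and also held the start of the non-coding transcript *4930588K23Rik*, whereas the *Tbx18* region held no start of another gene.

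Among the other members, *Tbx6* (chromosome 7, 133924997 to 133929074, plus strand) had a TSS region of 8200 bp (133918086 to 133926285). It lay mostly upstream, with 6911 bp before the 5' end and 1288 bp after it, and held the starts of *Ypel3* and *Gm9967* as well. The region thus cannot be assigned to *Tbx6* rather than to its neighbours.

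*Tbx15* (chromosome 3, 99044304 to 99158182, plus strand) had 2 TSS regions. That over the 5' end of the gene, where a non-coding transcript starts, was 2300 bp wide, and that over the start of the protein-coding transcript, 13.4 kb into the gene, was 6540 bp wide (99055326 to 99061865). The start of a further transcript, 56129 bp into the gene, lay in no region.

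*Tbx4* (chromosome 11, 85699924 to 85729599, plus strand) had a TSS region of 5080 bp (85699526 to 85704605), which lay almost wholly inside the gene, with 398 bp upstream. It held the first and second of 3 annotated starts, and the third lay in no region. *Eomes* (chromosome 9, 118387330 to 118395250, plus strand) had the narrowest of the 8, of 4360 bp (118385306 to 118389665), with all 3 of its annotated starts inside. These 2 regions were wider than 67.9% and 59.4% of the TSS regions of coding genes.

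Base composition of the TSS regions did not follow their width. The regions of *Eomes* and *Tbx1*, at 5.64 and 5.36 CG per 100 bases, were richer in CG than 94.5% and 93.2% of coding TSS regions. The *Tbx6* region, at 2.07, was below the median of 2.83 and richer than only 23.5%. The *Tbx2* region, at 3.08, and the *Tbx15* region, at 3.07, were near that median, and *Tbx18*, *Tbx3* and *Tbx4* lay between at 3.90, 3.72 and 3.56.

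**Figure D2:**
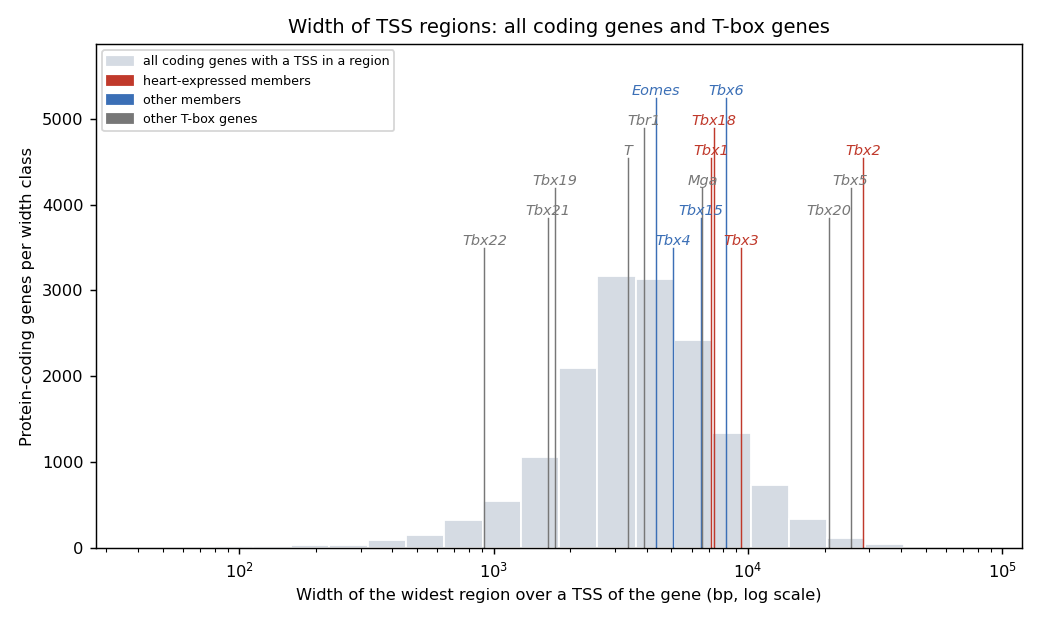
Width of the widest region over a TSS (horizontal axis, bp, log scale) for all 15752 coding genes with such a region (bars, genes per width class) and for each T-box gene (lines). Members run from 4360 bp (*Eomes*) to 28400 bp (*Tbx2*), to the right of the median of 3720 bp, and *Tbx2*, *Tbx5* and *Tbx20* lie in the far right tail.

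The windows were well covered by regions. Merged regions covered 49.6% of the window of *Tbx2*, 40.4% of that of *Tbx1*, 34.4% of that of *Tbx3* and 23.1% of that of *Tbx18*. They covered 38.0% of the window of *Tbx6*, 35.7% of that of *Eomes*, 31.3% of that of *Tbx4* and 14.9% of that of *Tbx15*. The median window of a coding gene was covered to 16.7% (quartiles 6.52% and 28.3%). So 7 members lay above the median and *Tbx15*, whose window is longest at 163.9 kb, lay below it. That median is over all 22367 coding genes, also those with no TSS in a region, whereas every member has one.

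High cover did not always come with many regions. *Tbx2* had 19 regions, the median number for a coding gene, and its TSS region alone made up 57.3% of the covered length. *Tbx15* had the most, 35, with a median width of 200 bp and 22 under 500 bp. *Tbx1* had 30 regions, *Tbx3* 29, *Tbx18* and *Eomes* 25 each, *Tbx4* 22 and *Tbx6* 17. Over the 193 regions, the median width was 560 bp and 47.2% were under 500 bp, against 320 bp and 59.1% over all merged regions.

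Neighbouring genes set part of the cover. In the *Tbx6* window, 6 of 17 regions held a start of another gene, and the widest, of 11640 bp, lay 8.41 kb downstream over the starts of *Ppp4c*, a phosphatase subunit, and *Aldoa*, a glycolytic enzyme. In the *Eomes* window the widest region, of 7720 bp, lay 37.1 kb downstream inside *Golga4*, a gene of a Golgi protein. Of the covered bases of the *Tbx4* window, 8682 belonged to the *Tbx2* TSS region, without which 22.6% of the window was covered.

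*Tbx18* had no start of another gene in its window. Besides its TSS region, 5 of its 25 regions held exons of the gene, 6 were intronic and 13 intergenic. The widest of these was 2800 bp, 6.93 kb upstream. *Tbx15* had 19 intronic regions of its own and 11 in introns of its upstream neighbour *Wars2*. In the *Tbx3* window 15 regions lay in introns of *Gm2301*, and in the *Tbx1* window 12 lay in introns of *4930588K23Rik* or *Gnb1l*.

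Cover within 5 kb of the 5' end was the highest of the 4 distance classes at every member but *Tbx15*, with *Tbx2* covered throughout to 10 kb. Within 5 kb on either side it was 100% at *Tbx2*, 84.4% at *Tbx3*, 77.5% at *Tbx1*, 77.4% at *Tbx18*, 72.9% at *Tbx6*, 53.6% at *Eomes*, 50.8% at *Tbx4* and 26.2% at *Tbx15*, against a median of 32.6% over coding genes. The 5' end of *Tbx15* is that of a non-coding transcript, and within 5 kb of its first protein-coding start 77.6% was covered. The other 7 members have a protein-coding start at the 5' end. The medians for coding genes in this paragraph again include genes with no TSS in a region. At 5 to 10 kb the members ranged from 32.3% (*Tbx1*) to 100% (*Tbx2*), all above the coding median of 9.80%. At 25 to 50 kb they ranged from 12.0% (*Tbx18*) to 42.9% (*Eomes*), against 14.0%. *Tbx18* was thus covered mainly close to its promoter, and *Eomes* also far downstream, largely over *Golga4*.

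**Figure D3:**
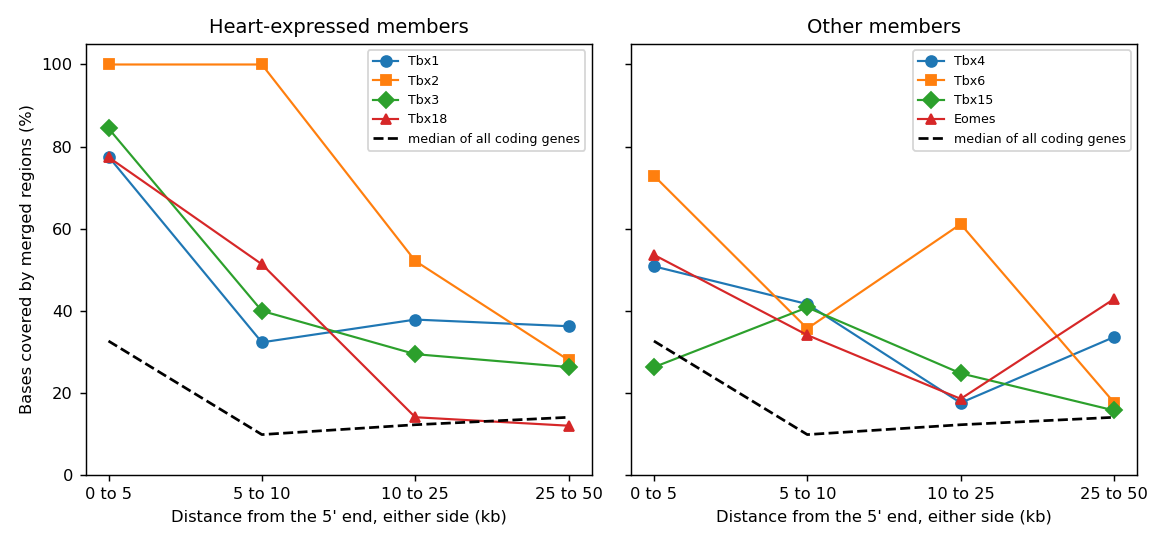
Share of bases covered by merged regions (vertical axis, %) in 4 classes of distance from the 5' end on either side (horizontal axis, kb), for the heart-expressed members (left), the other members (right) and the median of all coding genes (dashed line). At 0 to 5 kb the 4 heart-expressed members lie at 77.4% or above, and the other members between 26.2% and 72.9%. *Tbx15*, drawn from a non-coding start, would lie at 77.6% from its first protein-coding start, and the groups would then overlap.

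Heart-expressed members were then set beside the other members. The TSS regions of *Tbx1*, *Tbx18*, *Tbx3* and *Tbx2* had a median width of 8370 bp (7140 to 28400 bp), and those of *Eomes*, *Tbx4*, *Tbx15* and *Tbx6* a median of 5810 bp (4360 to 8200 bp). The medians differed by 2560 bp and the groups overlapped, since *Tbx6* exceeded *Tbx1* and *Tbx18*. Covered shares overlapped widely, with medians of 37.4% and 33.5%, as did the numbers of regions, with medians of 27.0 and 23.5. Within 5 kb of the 5' end the medians were 81.0% and 52.2%, and the groups did not overlap. This rested on *Tbx15*: taken from first protein-coding starts, a choice made after seeing the data, the median of the other members was 63.2% and *Tbx15*, at 77.6%, lay above *Tbx1* and *Tbx18*, so the groups overlapped. Genes are not replicates, so these differences are descriptions with no test. With *Tbx1* counted among the other members the difference in covered share changed sign, from 3.90 to -1.36 percentage points.

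**Figure D4:**
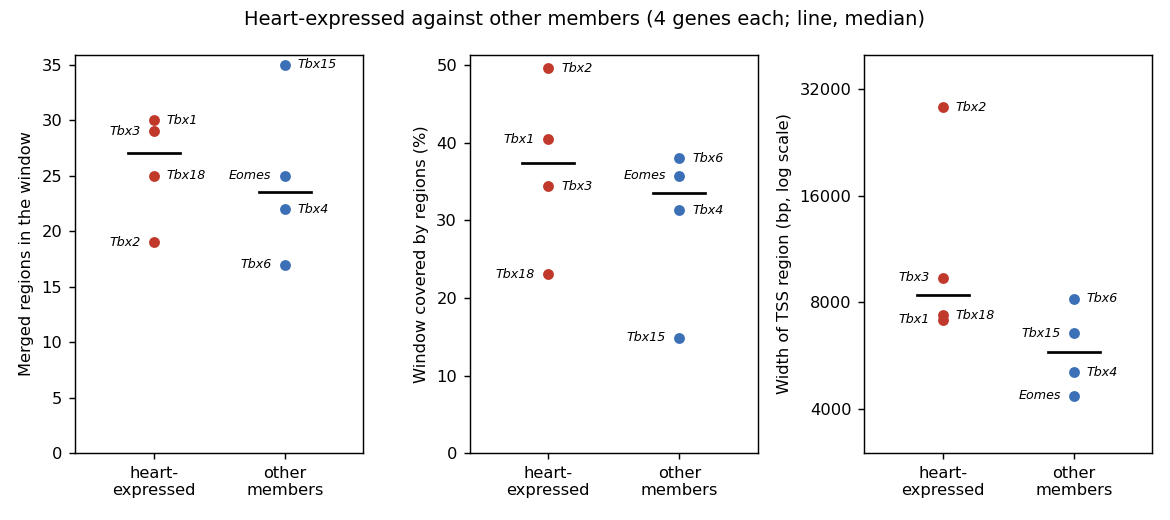
Number of merged regions (left), share of the window covered (middle, %) and width of the TSS region (right, bp, log scale) for each member, with a line at the median of the 4 heart-expressed and the 4 other members. The groups overlap in all 3 panels, and *Tbx2* is the highest in the middle and right panels.

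To determine where the myocardial deletion of *Kmt2d* was followed by lower methylation at these genes, the windows were searched for regions of the authors' decreased lists. Decreased H3K4me1 was recorded in 3 of the 193 regions, or 1.55% (95% Wilson interval 0.530% to 4.47%), against 0.761% of all merged regions. Decreased H3K4me2 was recorded in 5, or 2.59% (1.11% to 5.92%), against 1.87%. Both backgrounds lay within the intervals, which cover counting error only. Wide regions are called more often, and at the shares of their width classes 1.97 and 5.77 of the members' regions would be in the lists, close to the 3 and 5 observed.

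The 3 regions with decreased H3K4me1 lay in the windows of *Tbx1* and *Tbx3*, and not of *Tbx2* or *Tbx18*, away from any TSS. The first, of 1940 bp (18603946 to 18605885), lay 15.8 kb upstream of *Tbx1* in an intron of *4930588K23Rik*. The other two lay upstream of *Tbx3* in introns of *Gm2301*, and were the 60 bp sequence printed above and a region of 3320 bp (120085446 to 120088765) at a distance of 31.9 kb. Thus 2 of 8 members had decreased H3K4me1 in the window, against 14.4% of coding genes, and no member had it over a TSS, against 1.29% of coding genes with a TSS in a region. At *Tbx3*, the decreased 60 bp region was the nearest region upstream of the TSS region, which itself was in neither list.

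Decreased H3K4me2 was recorded in the windows of 5 members, namely *Tbx2*, *Tbx4*, *Tbx6*, *Tbx18* and *Eomes*, against 45.7% of coding genes. For *Tbx4* this was the *Tbx2* TSS region, 41.3 kb upstream of *Tbx4*, so the record is the same one. For *Tbx6* it was the 100 bp sequence printed above, 10.1 kb from the gene, and for *Tbx18* a narrow intergenic region upstream of the gene. At *Eomes*, a region of 3600 bp (118395686 to 118399285) lay 8.36 kb downstream of the 5' end, past the end of the gene in intergenic sequence, and a region of 3840 bp (118414806 to 118418645) held the start of *Golga4*. Of these regions at *Eomes*, only the second lay over a promoter, that of *Golga4*.

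Over a TSS, 1 of 8 members, *Tbx2*, had decreased H3K4me2, against 29.2% of the coding genes with a TSS in a region. That share rose with width, from 36.4% for TSS regions of 4000 to 8000 bp, where *Tbx1*, *Tbx18*, *Tbx4*, *Tbx15* and *Eomes* lay, to 43.3% for 8000 to 16000 bp, where *Tbx3* and *Tbx6* lay, and 61.2% for 16000 bp or more, where *Tbx2* lay. The *Tbx2* call thus fell in the class in which most genes were called. At the shares of their width classes, 3.3 members would be called, against the 1 observed. Because the 28400 bp region also holds the starts of *2610027K06Rik* and *Bcas3*, the lists do not tell which part of it lost the mark. The TSS regions of the remaining 7 members were in neither list, which does not show that their methylation did not change.

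**Figure D5:**
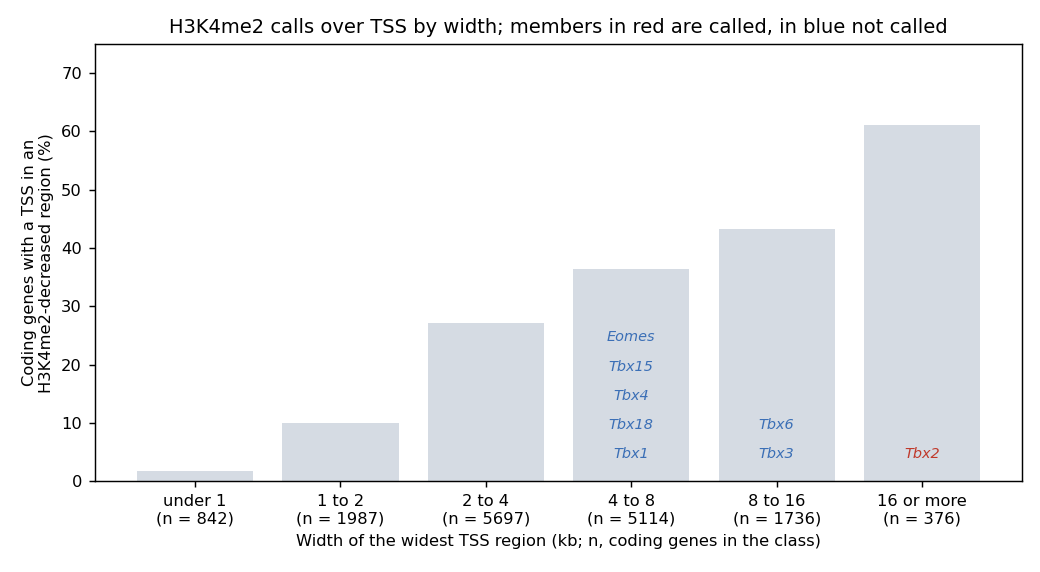
Share of coding genes with a TSS in an H3K4me2-decreased region (vertical axis, %) by width of the TSS region (horizontal axis, kb, with the number of genes in each class), with the members' names written in their width class (the height of a name has no meaning). The share rises to 61.2% in the widest class, which holds *Tbx2* (red, in the list), and the members in blue are in neither list.

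Distance to the nearest decreased region differed greatly between members. For H3K4me1 it was 4.95 kb at *Tbx3* and 15.8 kb at *Tbx1*, then 319.3 kb at *Tbx6*, 530.8 kb at *Tbx4*, 584.7 kb at *Tbx2*, 944.3 kb at *Eomes*, 1420 kb at *Tbx15* and 2086 kb at *Tbx18*, against a median of 315.0 kb over coding genes (quartiles 109.5 and 820.6 kb). For H3K4me2, among the members other than *Tbx18*, it was 0 kb at *Tbx2*, 8.36 kb at *Eomes*, 10.1 kb at *Tbx6*, 41.3 kb at *Tbx4*, 77.6 kb at *Tbx3*, 97.7 kb at *Tbx15* and 155.9 kb at *Tbx1*, against a median of 65.7 kb (10.6 and 199.2 kb). *Tbx3* and *Tbx1*, the nearest to decreased H3K4me1, were among the 3 of these farthest from decreased H3K4me2. *Tbx15* alone had no decreased region of either mark in its window.

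The remaining T-box genes gave a frame for these values. Of 9 (*T*, *Tbr1*, *Tbx5*, *Tbx10*, *Tbx19*, *Tbx20*, *Tbx21*, *Tbx22* and *Mga*), 8 had a TSS in a region and *Tbx10* had none. Decreased H3K4me1 lay in the windows of 4 of the 9 (*T*, *Tbx5*, *Tbx10* and *Tbx21*), against 14.4% of coding genes. *Tbx5* and *Tbx20*, both required for heart formation, had TSS regions of 25320 and 20820 bp, both with decreased H3K4me2. *Mga*, a widely expressed T-box gene, had a TSS region of 6620 bp that was also decreased for H3K4me2. *T*, *Tbr1*, *Tbx19*, *Tbx21* and *Tbx22* had TSS regions of 3360, 3900, 1740, 1640 and 920 bp, in neither list. Of 16 T-box genes with a TSS in a region, 4 thus had decreased H3K4me2 there, being all 3 with a region of 16 kb or more (*Tbx2*, *Tbx5* and *Tbx20*) and 1 of 13 with a narrower one (*Mga*). Among all coding genes with a TSS in a region the share was 29.2%, so the 4 of 16 lay near the background. Among coding genes with a region of 16 kb or more the share was 61.2%, and in the narrower width classes it ran from 1.78% to 43.3%. *Tbx3* and *Tbx5* are neighbours, with 5' ends 163994 bp apart, and of this pair only the TSS region of *Tbx5* was in the H3K4me2 list.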

How the data were processed

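Chromatin from E11.5 hearts was immunoprecipitated for H3K4me1, H3K4me2 and H3K4me3 and sequenced. Per the labels, reads were placed on mm9, and CASAVA 1.8.2, FastQC, Bowtie2, Bowtie and SAMtools were named without their roles. The peak caller, its settings and the test behind the decreased lists are not given in the sources used here. The authors deposited 3 lists of region coordinates, 1 merged over all replicates and marks and 2 of decreased regions, without read depth, score or any value per replicate.

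Coordinates were read as 1-based, and the last region of each of 21 chromosomes ended within NCBIM37. A region belonged to a window with at least 1 bp of overlap, and to a decreased list with identical coordinates. TSS regions were the widest over any annotated TSS of a gene. Shares have 95% Wilson intervals, computed with Python 3.11.15 and NumPy 2.4.6, and the overlap functions were tested on simulated data. Groups came from sample titles. The members and gene lists were chosen with earlier results of these data known. Named genes were the members, the remaining T-box genes, genes with a TSS in a decreased region of a member's window and coding genes whose TSS lay in a window where they held a region; partner and target genes were to be given as counts. Other neighbouring genes and transcripts, and the partner genes named, were chosen after their values were seen. The heart-expressed grouping came from textbook knowledge. Alternatives were other windows, width minimums, overlap rules, groupings and leaving out each gene. KMT2D ChIP-Exo and changes in H3K4me3 were not analysed here. A few genes and 1 region sequence are not reported here.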

Additional observations from a re-analysis of the deposited data

How the results depend on the processing

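Of 47 alternative values for 7 results, 41 stayed within a factor of 1.5 (counts), within the Wilson interval (shares) or within the standard deviation over genes (differences). For covered share and TSS region width that standard deviation, 10.8 percentage points and 7360 bp, was larger than the reported difference. Even no difference would have counted as staying within it, so the count says little about how stable these differences are. The number of regions was 72 with windows of 10 kb, 326 with windows of 100 kb and 102 among regions of at least 500 bp. The share with decreased H3K4me2 was 13.5% by covered base pairs, against 9.09% over all merged regions, and 3.21% without the 28400 bp *Tbx2* region. The difference in covered share between heart-expressed and other members was -1.36 percentage points with *Tbx1* among the other members and 15.9 with windows of 10 kb, against 3.90 as reported. It was 0.0658 with windows of 100 kb, 6.90 by group means and 14.2 without regions over another gene's TSS. For TSS region width it was 7025 bp by group means and 3650 bp over the 5' end alone, against 2560 bp. Within 5 kb of the start the difference in cover was 28.8 points, and 17.7 from first protein-coding starts, an alternative chosen after seeing the data. The difference in covered share ranged from 0.869 to 6.92 when each gene was left out in turn, and the difference in TSS region width from 1550 to 3570 bp. No paired analysis was possible because the lists carry no values per replicate.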

Other observations

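Genes that T-box factors act with or on in the heart were located in the same way. All 16 genes of the list had a TSS in a merged region, with a median width of 7890 bp (3020 to 48800 bp). Decreased H3K4me1 lay in the windows of 6 of them and decreased H3K4me2 in those of 7, against 14.4% and 45.7% of coding genes. The genes described next were chosen after their values were seen. Decreased H3K4me2 lay over a TSS of 3 of the 16, against 29.2% of coding genes with a TSS in a region. These were *Gata4* and *Nkx2-5*, which encode core cardiac transcription factors, and *Isl1*, which marks second heart field progenitors. The TSS regions of *Gata4* and *Nkx2-5* were 48800 and 22900 bp wide, in the width class where 61.2% of coding genes were called. That of *Isl1* was 8200 bp wide, in the class where 43.3% were called. The calls are thus not read as particular to these genes. *Hcn4*, which encodes the pacemaker channel, had 5 regions with decreased H3K4me1 in its window, more than any of the 8 T-box members or of the other 15 genes of the list. Its TSS region, 17120 bp wide, was in neither list.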
